A study of Homo sapiens with 10 samples.

Results

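Respiratory complex I is described here through its nuclear genes and the assembly factors that carry its name. A gene was taken where its symbol begins with NDUFA, NDUFB, NDUFC, NDUFS, NDUFV, NDUFAB or NDUFAF and a number follows, which gave 41 of 24994 features. They are 33 subunits and the 8 assembly factors NDUFAF1 to NDUFAF8. Of 37 nuclear subunits looked for, NDUFA3, NDUFA9, NDUFB2 and NDUFS5 are not analysed here. NDUFA4 appears in the gene table as COXFA4, a component of complex IV, and was not taken.

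Polyadenylated RNA of HEK293, a human embryonic kidney cell line, was sequenced in a study of CLIP, the crosslinking and immunoprecipitation of RNA-binding proteins. There were 4 groups of 2 libraries, A and B. Untreated cells had no modified nucleoside and no ultraviolet light, and 4SU cells were fed 1 mM 4-thiouridine for 12 to 14 h without light. The 4SU with 365 nm cells had the same feeding and were irradiated at 365 nm, and the 254 nm cells were irradiated without feeding. A further library each came from cells given an siRNA against GFP, the control, or against HuR, an RNA-binding protein encoded by ELAVL1, without feeding or light. The labels do not say that A and B are separate cultures, so a p-value covers no more than the spread of these samples, which may be technical.

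Complex I takes electrons from NADH, passes them along iron-sulfur clusters to ubiquinone, and pumps protons across the inner mitochondrial membrane. Its matrix arm holds the catalytic core, its membrane arm pumps protons, and accessory subunits surround both. The assembly factors bind intermediates and leave the finished enzyme. The proton-pumping core is encoded in mitochondrial DNA, and 0 of its 7 genes were in the lists analysed here.

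Depth was 2238569 to 3099769 tags in the 8 libraries of the 4 groups and 8688262 and 9016803 in the siRNA pair. Of 9 marker genes of HEK293 fixed for a check of identity, 9 were in the files and 5 were detected in every library, with a summed level of 156 to 3052 tags per 1000000. The adaptor gene IRS4, which the line expresses strongly, was at 375 and 413 tags per 1000000 in untreated cells and at 5.41 and 8.02 after 4SU with 365 nm. Markers of other cell types, 10 of 15 in the files, summed to 13.8 to 40.4. The factors that scale the libraries to each other (TMM) were 1.55 to 1.755 in the unirradiated libraries, and fell to 0.988 and 0.780 for 254 nm light and to 0.372 and 0.5 for 365 nm light in fed cells. They move every comparison with an irradiated group: with library totals alone the median log2 fold change of all genes tested was -2.40 in place of -0.50 at 365 nm and -1.0 in place of -0.14 at 254 nm. Values below use the TMM factors unless library totals are named.

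The members differ in transcript length and base composition. The subunits had a median deposited length of 804 nt (418 to 4928), and 23 of 33 were under 1000 nt. The assembly factors had 1641 nt (560 to 2411), with 2 of 8 under 1000 nt, and all 13731 genes tested had 2753 nt. Uridine made up a median of 24.1% of subunit transcripts and 27.5% of assembly factor transcripts, against 24.5% over all genes, and GC made up 52.0%, 44.3% and 49.6%. Composition was read from GENCODE transcripts for 38 of the 41.

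The first 150 coding bases of 4 members are shown because 4SU enters RNA in place of uridine. After irradiation NDUFS6 was high at 365 nm (log2 fold change 3.85) and NDUFB7 at 254 nm (3.47). NDUFA5 (1.82 and 0.06 at 365 and 254 nm) and NDUFAF4 (0.02 and 1.29) had smaller fold changes than these, and neither was called lower. With 4SU alone NDUFB7 (0.83, not called) was the highest of the 4 and NDUFA5 (-1.22, called lower) the lowest. NDUFS6 and NDUFAF4 lay between them and were not called. Capitals mark T, which stands for U in the mRNA.
NDUFB7: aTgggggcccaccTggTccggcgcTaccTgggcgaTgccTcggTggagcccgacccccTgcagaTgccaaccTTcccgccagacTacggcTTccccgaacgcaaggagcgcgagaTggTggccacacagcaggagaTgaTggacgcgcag
NDUFS6: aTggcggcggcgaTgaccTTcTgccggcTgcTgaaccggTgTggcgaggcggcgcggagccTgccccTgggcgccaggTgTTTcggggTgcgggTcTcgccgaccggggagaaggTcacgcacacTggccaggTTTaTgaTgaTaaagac
NDUFA5: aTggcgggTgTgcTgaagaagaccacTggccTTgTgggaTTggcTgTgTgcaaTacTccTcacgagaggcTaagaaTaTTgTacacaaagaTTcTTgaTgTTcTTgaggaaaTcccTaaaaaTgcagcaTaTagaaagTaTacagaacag
NDUFAF4: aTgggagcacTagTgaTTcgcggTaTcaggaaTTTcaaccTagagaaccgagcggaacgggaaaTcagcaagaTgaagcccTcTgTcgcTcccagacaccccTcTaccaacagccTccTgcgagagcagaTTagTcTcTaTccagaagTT
NDUFB7 and NDUFS6, subunits with short transcripts of 570 and 554 nt, had 12.7% and 17.3% T in these stretches. NDUFA5 and NDUFAF4, with transcripts of 1550 and 2411 nt, had 24.7% and 19.3%. Coding sequences were read from GENCODE transcripts, which may be other isoforms than those counted. That of NDUFS6 had 550 nt with 519 coding, and that of NDUFA5 had 1901 nt. Over the full coding sequence of these transcripts T made up 13.3% of NDUFB7, 22% of NDUFS6, 22.5% of NDUFA5 and 25.4% of NDUFAF4. Over whole transcripts U made up 14.1% of NDUFB7, 22.5% of NDUFS6, 31.7% of NDUFA5 and 31.0% of NDUFAF4.

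In untreated cells the subunits stood above most assembly factors. Levels between genes were compared as normalised counts per 1000000 tags (CPM) per kilobase of transcript. The median was 68.4 for the subunits and 15.7 for the assembly factors. The highest were accessory subunits: NDUFB11 had 341 and 190 CPM per kilobase in libraries A and B, and NDUFA13, also known as GRIM-19, had 303 and 179. NDUFAF8, a partner of NDUFAF5, was the only assembly factor above the median subunit, at 189 and 170. The core subunits lay in the middle, with a median of 63.7 CPM per kilobase.

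At the low end were NDUFA10 (11.4 and 15.1 CPM per kilobase) and 3 assembly factors. NDUFAF7, a methyltransferase, had 4.84 and 9.47. NDUFAF6, an early assembly factor, had 2.86 and 5.01. NDUFAF5, which hydroxylates NDUFS7, had 1.98 and 2.88 CPM per kilobase. NDUFB4 was lower still at 0.638 and 2.05, but it is listed only as a 1560 nt transcript variant (NM_001168331), so its value does not describe the whole gene. Without it the highest and lowest subunits differed 20-fold. Only 5 of 40 neighbouring pairs in the order were separated in both libraries, and the order within the middle is not resolved.

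Tags of 11 members were partly split between transcripts by the authors' counting, among them NDUFAB1, NDUFAF3, NDUFAF4, NDUFAF7, NDUFV3, NDUFA10, NDUFA13, NDUFB10, NDUFB4 and NDUFC2. Their values are uncertain to that extent. All 41 members passed the filter on low counts.

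**Figure D1:**
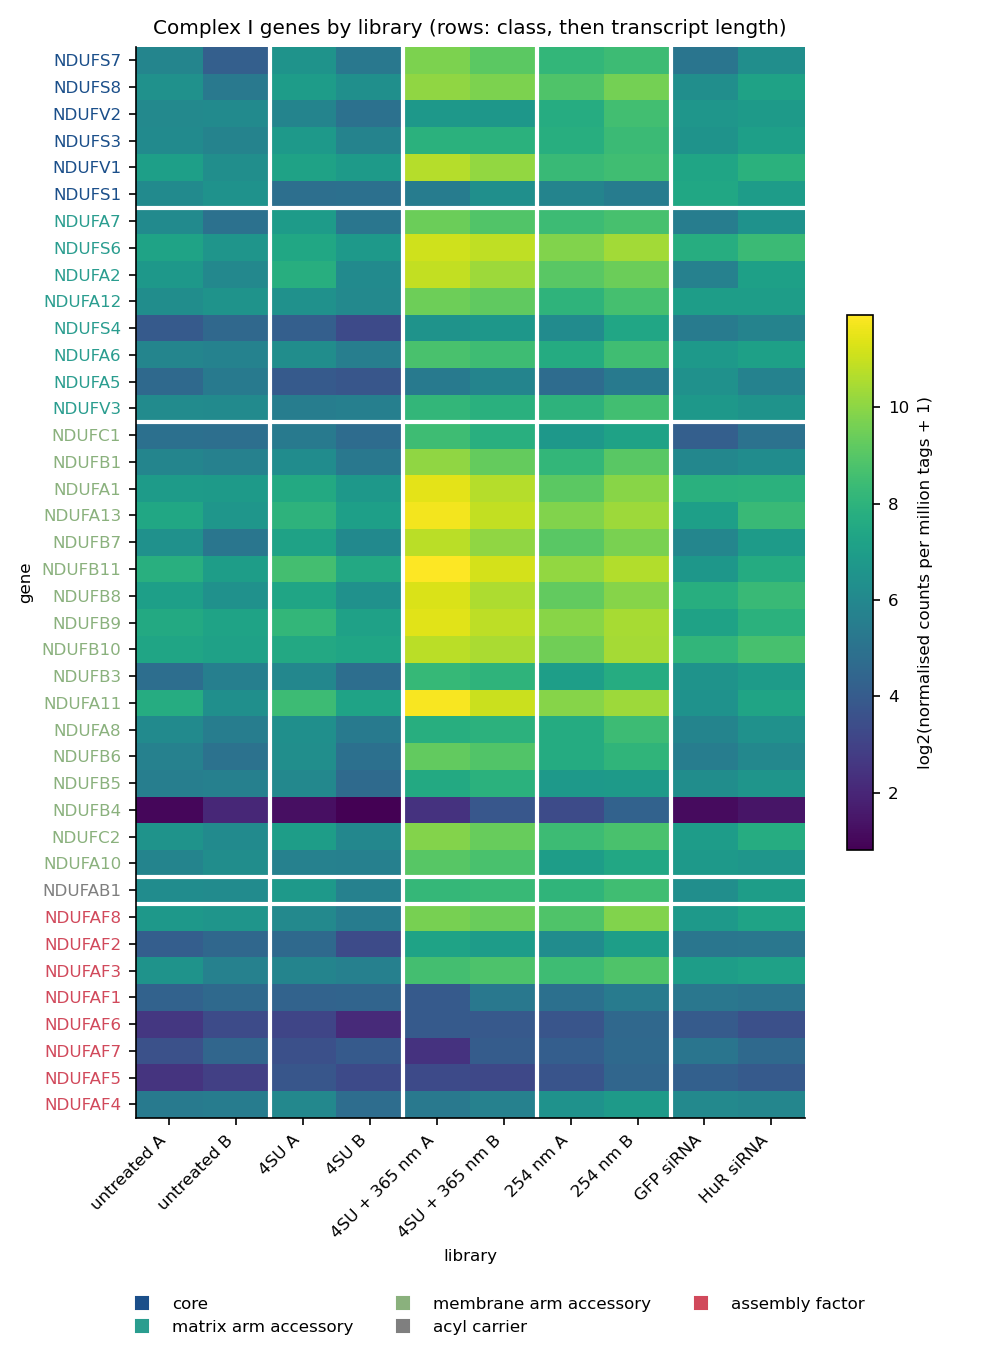
Level of 40 of the 41 genes in each of the 10 libraries, as log2 of CPM plus 1; rows are ordered by class and then by transcript length, and the siRNA pair is normalised apart from the other 8. The irradiated libraries are lightest over the short accessory subunits, with NDUFB11 at 3867 and 2343 CPM after 4SU with 365 nm, while NDUFAF5 stays between 4.58 and 21.0 CPM in the 8 libraries.

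Feeding with 4SU alone was compared first. Of 33 subunits 2 were lower and 0 higher in 4SU cells, and of 8 assembly factors 0 passed in either direction, where 3.69% of all genes were called lower and 3.85% higher (7.54% together). A gene was called at an adjusted p under 0.05 by edgeR's quasi-likelihood test with Benjamini-Hochberg adjustment over all genes. No subunit was higher, and 1 assembly factor was higher and 1 lower, at an unadjusted p under 0.05, and DESeq2 called none of these 3 directions. The median log2 fold change was 0.17 over the subunits, -0.29 over the assembly factors and 0.02 over all genes.

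NDUFS1, the core subunit that carries several of the iron-sulfur clusters, had 68.9 and 86.8 CPM in untreated cells and 27.9 and 29.4 with 4SU. The groups did not overlap, and the log2 fold change was -1.44 ± 0.34 (SE, n = 2 per group; edgeR adjusted p 0.00491). Without 4SU library A it was -1.42 with an adjusted p of 0.0900. NDUFA5, an accessory subunit at the foot of the matrix arm, had 23.5 and 40.5 CPM in untreated cells and 14.5 and 12.8 with 4SU, again without overlap. Its log2 fold change was -1.22 ± 0.37 (edgeR adjusted p 0.0324). Its call was lost without 4SU library A (-1.33), 4SU library B (-1.14) or untreated library B (-0.80). It was also lost with DESeq2 (adjusted p 0.066), on library totals (edgeR adjusted p 0.0934) and with the compared groups alone (edgeR adjusted p 0.0762).

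NDUFS1 and NDUFA5 have long transcripts for subunits, 3417 and 1550 nt, with GC contents of 40.7% and 36.4%. Over the 38 members with a composition, the 4SU log2 fold change had a Spearman correlation of 0.52 with GC content, and over 10627 genes it was 0.43. These genes share their libraries, so the correlations are descriptions. The other accessory extremes were NDUFB7 at 0.83 and NDUFA11 at 0.78, and NDUFB4 at -0.92 and NDUFV3 at -0.61, none of them called. NDUFA2 and NDUFA7 had 0.77 and 0.62, and both were below 0 without 4SU library A. Without untreated library A, NDUFA7, NDUFA11 and NDUFB7 were called higher (1.34, 1.60 and 1.60), among 5 subunits in all. The assembly factors ran from -0.90 in NDUFAF8 to 0.94 in NDUFAF5. With the length trend of all genes removed NDUFAF8 was called lower (-1.15, edgeR adjusted p 0.0159), where 5.29% of all genes were. With GC content removed as well it was at -1.49 (adjusted p 0.000321) and NDUFAF5 was called higher (1.14, adjusted p 0.0243), where 8.39% were lower and 7.79% higher.

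The 4SU libraries were not alike for this complex. Library A exceeded library B in 31 of 33 subunits, by a median of 0.92 on the log2 scale, where the median over all genes was 0.01. Irradiation at 254 nm gave the opposite order, with A above B in 2 of 33 subunits and a median difference of -0.55. A and B are only letters, so these are spreads within a group.

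The next comparison asked what differed after 365 nm light in fed cells. All 33 subunits were higher than with 4SU alone, by a median log2 fold change of 3.17, while 4 of 8 assembly factors were higher and none lower, with a median of 0.92. No member was lower at an unadjusted p under 0.05 or with DESeq2, here or in the 254 nm comparison. Over all genes 26.1% were called higher and 33.8% lower (59.9% together), with a median of -0.50. On library totals the counts were 21 higher and 1 lower for the subunits (median 1.28) and 3 higher and 4 lower for the assembly factors (median -0.96), where 7.42% of all genes were higher and 72.6% lower (median -2.40). The amount of RNA in each cell and the share of it that reached a library were not measured, and each fold change is relative to the other mRNAs.

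The core subunits fell into a higher and a lower set. NDUFV1, which binds NADH and its flavin, had 146 and 114 CPM with 4SU and 1629 and 1094 after 365 nm, a log2 fold change of 3.39 ± 0.42 (SE; edgeR adjusted p 8.96e-09). NDUFS7 and NDUFS8, iron-sulfur proteins near the ubiquinone site, rose by 3.44 and 3.24. For these 3 genes the irradiated libraries lay far above both unirradiated ones.

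NDUFS3, NDUFV2 and NDUFS1, also of the core, rose less. NDUFS3 had 107 and 54.3 CPM with 4SU and 236 and 241 after 365 nm (log2 fold change 1.57 ± 0.36, adjusted p 0.000311). NDUFV2, the partner of NDUFV1, had 55.7 and 29.8 CPM and then 104 and 103 (1.29 ± 0.36, adjusted p 0.0026; 0.0986 without 4SU library B). The groups did not overlap in either gene.

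NDUFS1 went from 27.9 and 29.4 CPM to 43.8 and 79.0 (1.12 ± 0.35, adjusted p 0.00598; 0.293 without irradiated library B). On library totals NDUFS1, NDUFS3 and NDUFV2 had negative values of -0.76, -0.32 and -0.61.

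Accessory subunits were called higher throughout. In the matrix arm the 8 genes ran from NDUFA5 (1.82) and NDUFV3 (2.48) to NDUFA2 (3.47) and NDUFS6 (3.85). NDUFS6, a zinc-binding subunit, had 171 and 109 CPM with 4SU and 2195 and 1836 after 365 nm. NDUFA5 had 14.5 and 12.8 and then 39.3 and 55.9, a value of -0.07 on library totals.

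In the membrane arm the 17 genes ran from NDUFA8 (1.96) and NDUFB5 (2.27) to NDUFB1 (3.96) and NDUFB8 (4.03). NDUFB8 had 162 and 84.2 CPM with 4SU and 2504 and 1506 after 365 nm, with no overlap. NDUFAB1, the mitochondrial acyl carrier protein found in both arms, had 109 and 51.1 CPM and then 291 and 317.

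The assembly factors split. NDUFAF8 had 64.0 and 43.9 CPM with 4SU and 804 and 668 after 365 nm (log2 fold change 3.77 ± 0.42, edgeR adjusted p 1.6e-09). NDUFAF2, a chaperone whose place NDUFA12 takes in the finished enzyme, rose from 23.3 and 9.23 CPM to 150 and 121 (3.08 ± 0.39). NDUFAF3, which acts on the matrix arm with NDUFAF4, rose from 55.7 and 49.6 to 389 and 448 (2.99 ± 0.38). These 3 values lay within the range of the accessory subunits.

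NDUFAF6 went from 7.68 and 3.39 CPM to 14.6 and 14.0 (1.40 ± 0.51, adjusted p 0.0179). Its call was lost without irradiated library A (0.0620), irradiated library B (0.0921) or 4SU library B (0.234). The remaining 4 were not called, and their groups overlapped. NDUFAF1, a member of the membrane-arm assembly complex, had 19.6 and 19.8 CPM and then 14.6 and 37.1 (0.44).

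NDUFAF4 had 62.3 and 26.6 CPM with 4SU and 38.2 and 50.3 after 365 nm (0.02), in contrast to NDUFAF3. NDUFAF7 had 10.5 and 14.7 and then 4.49 and 15.4 (-0.25), and NDUFAF5 had 12.8 and 8.86 and then 8.98 and 8.39 (-0.31). On library totals NDUFAF1, NDUFAF4, NDUFAF5 and NDUFAF7 were called lower, at -1.42, -1.85, -2.20 and -2.13.

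**Figure D2:**
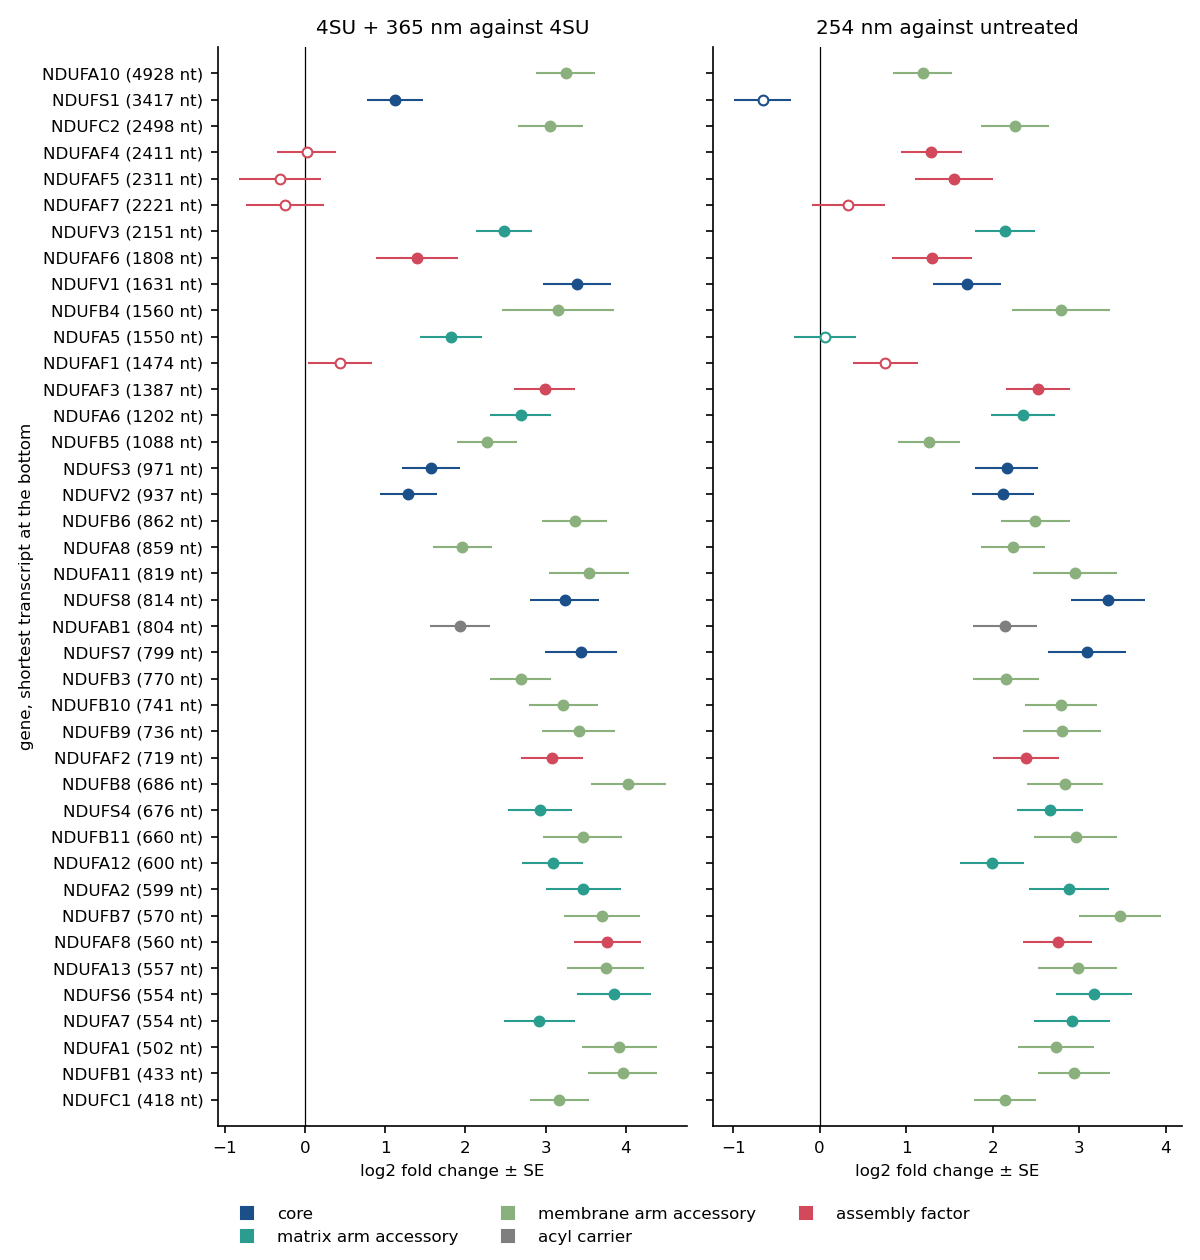
Log2 fold change ± SE of 40 of the 41 members at 365 nm and at 254 nm, from the 8-library edgeR fit with 2 libraries per group; rows run from the shortest transcript (NDUFC1, 418 nt) at the bottom to the longest (NDUFA10, 4928 nt), filled points are called and open points are not. Open points are 4 assembly factors at 365 nm, and NDUFS1, NDUFA5, NDUFAF1 and NDUFAF7 at 254 nm.

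The 254 nm comparison asked the same of unfed cells. Of 33 subunits 30 were higher than in untreated cells and none lower, and 6 of 8 assembly factors were higher. The log2 fold changes had a median of 2.49 over the subunits and 1.42 over the assembly factors. Over all genes 25.2% were called higher and 28% lower (53.2% together), with a median of -0.14. On library totals 27 subunits were higher and 1 lower (median 1.60) and 3 assembly factors were higher (median 0.53), where 10.1% of all genes were higher and 47.1% lower (median -1.0).

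The core again divided. NDUFS8 had 84.3 and 38.6 CPM in untreated cells and 458 and 779 after 254 nm (3.33 ± 0.43, edgeR adjusted p 2.12e-07), and NDUFS7 rose by 3.09. NDUFS3 (2.16) and NDUFV2 (2.12) came next, NDUFV2 from 65.7 and 67.9 CPM to 206 and 376. NDUFV1 rose by 1.70, from 135 and 77.7 CPM to 324 and 367. No core gene called here had overlapping groups, but the share of all called genes without overlap was not counted.

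NDUFS1 had 68.9 and 86.8 CPM in untreated cells and 55.0 and 43.5 after 254 nm (-0.66 ± 0.33, adjusted p 0.0921), the only subunit with a negative value. It was called lower on library totals (-1.50, adjusted p 0.000788), with upper-quartile factors (-0.81, adjusted p 0.0373) and without untreated library A (adjusted p 0.0365). NDUFA5 had 23.5 and 40.5 CPM and then 25.4 and 41.0 (0.06, not called), and it was at -0.83 on library totals.

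Accessory subunits of the matrix arm ran from NDUFA5 and NDUFA12 (1.99) to NDUFA7 (2.92) and NDUFS6 (3.17). Those of the membrane arm ran from NDUFA10 (1.19) and NDUFB5 (1.26) to NDUFA13 (2.98) and NDUFB7 (3.47). NDUFB7, which sits in the intermembrane space, had 85.8 and 35.4 CPM in untreated cells and 533 and 812 after 254 nm. NDUFA10, a kinase-like subunit with the longest transcript, had 56.4 and 74.5 and then 125 and 174, and lost its call without 254 nm library B (adjusted p 0.0794).

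Among the assembly factors NDUFAF8 rose from 106 and 95 CPM to 460 and 895 (2.75), NDUFAF3 from 90.4 and 50.8 to 354 and 460 (2.52) and NDUFAF2 from 16.7 and 22.1 to 72.7 and 129 (2.38). NDUFAF4 rose from 40.0 and 42.9 CPM to 86.8 and 116 (1.29, edgeR adjusted p 0.00197). NDUFAF5 rose from 4.58 and 6.65 to 11.8 and 21.0 (1.55, adjusted p 0.00386; 0.133 without 254 nm library B). The irradiated libraries exceeded both untreated ones in these 5 genes, and also in NDUFAF6 and NDUFAF1 below. The share of all genes separated in this way was not counted, so nothing is drawn from this separation. In this comparison 53.2% of all genes were called.

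NDUFAF6 went from 5.18 and 9.05 CPM to 12.3 and 22.5 (1.30, adjusted p 0.0159; 0.281 without 254 nm library B and 0.0926 without untreated library A). NDUFAF1 went from 18.7 and 23.4 CPM to 29.1 and 42.5 (0.76), and neither it nor NDUFAF7 (0.33) was called. NDUFAF7 had 10.8 and 21.0 CPM in untreated cells and 16.4 and 23.4 after 254 nm, so its groups overlapped, and it was at -0.55 on library totals.

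As a share of all tags, which no scaling factor touches, the 33 subunits took 0.480% and 0.350% in untreated cells and 0.618% and 0.384% with 4SU. Irradiated fed cells gave 1.38% and 1.26%, and irradiated unfed cells gave 1.22% and 1.43%, above every unirradiated library. The 8 assembly factors took 0.0473% and 0.0425% in untreated cells and 0.0393% and 0.0306% with 4SU. Their share was 0.0528% and 0.0679% in irradiated fed cells, and it was 0.103% and 0.133% in irradiated unfed cells.

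Subunit tags outnumbered assembly factor tags 10.1 and 8.22 to 1 in untreated cells, 15.7 and 12.5 to 1 with 4SU, 11.9 and 10.8 to 1 in irradiated unfed cells and 26.2 and 18.6 to 1 in irradiated fed cells. The 365 nm libraries had the highest ratios of the 10, and the ranges of the 4 groups did not overlap.

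**Figure D3:**
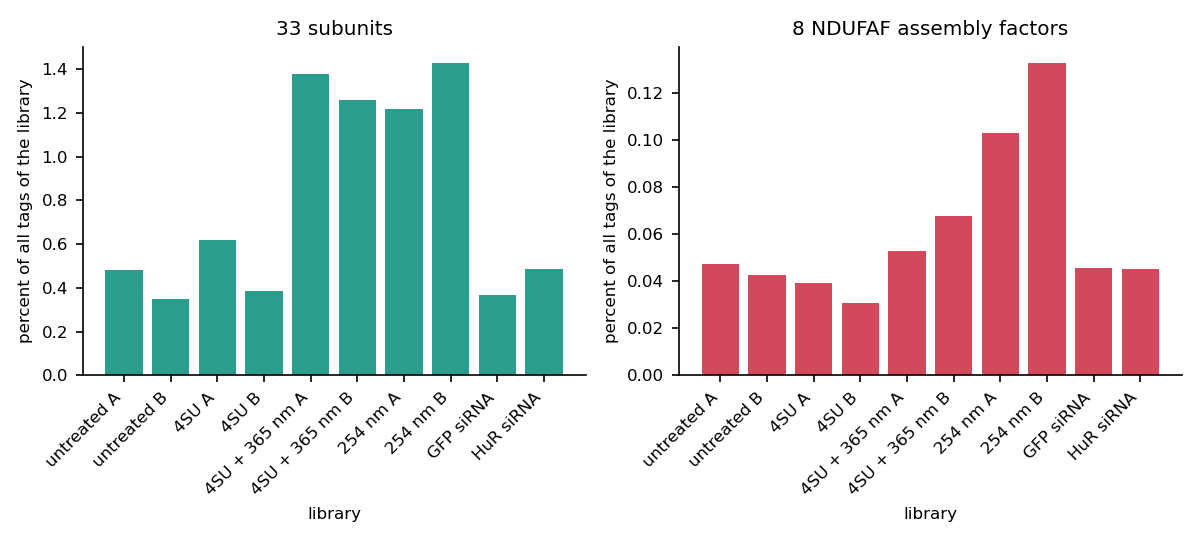
Percent of each library's tags on the 33 subunits (left) and on the 8 assembly factors (right); each bar is 1 library and both axes start at 0. Subunit shares are 1.22% to 1.43% in the 4 irradiated libraries and 0.350% to 0.618% in the other 6, and assembly factor shares are highest at 254 nm, 0.103% and 0.133%.

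Transcript length and GC content moved with these results. Across the 41 members the Spearman correlation of log2 fold change with length was -0.68 at 365 nm and -0.70 at 254 nm, and over all 13731 genes it was -0.45 and -0.65. With GC content it was 0.63 and 0.68 over 38 members, and 0.28 and 0.57 over 10627 genes. With uridine content it was -0.58 at 365 nm and -0.65 at 254 nm over 38 members, and -0.27 and -0.56 over 10627 genes. The genes share libraries and, in part, length, so these are descriptions.

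Within length classes, 23 of 23 subunits under 1000 nt were higher at 365 nm, beside 64.3% of all genes of that length. From 1000 to 2000 nt it was 5 of 5 subunits and 2 of 3 assembly factors beside 41.9%, and over 2000 nt it was 5 of 5 subunits and 0 of 3 assembly factors beside 15.8%. At 254 nm the subunits gave 23 of 23, 4 of 5 and 3 of 5, beside 67.5%, 52.5% and 10.5% of all genes, and the assembly factors 2 of 2, 2 of 3 and 2 of 3. Both assembly factors under 1000 nt, NDUFAF2 and NDUFAF8, were higher at both wavelengths.

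With the length trend of all genes removed from each library, 29 subunits and 3 assembly factors were higher at 365 nm (subunit median 1.61), beside 26.2% of all genes. At 254 nm 22 subunits and 4 assembly factors were higher (1.05) and NDUFA5 was lower (-0.90), beside 19% and 16.7% of all genes. With GC content removed as well, an alternative chosen after seeing the data, 31 subunits and 7 assembly factors could be fitted. Of these 14 subunits were higher and 1 lower at 365 nm (median 0.48), beside 26.6% and 23.5% of 10627 genes. At 254 nm 6 were higher and 1 lower (0.19), beside 10.4% and 9.89%, and 2 assembly factors were higher at each wavelength. The part of length and GC content in the result was measured only by these refits.

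The subunits that stayed higher at both wavelengths in that refit had transcripts of 862 to 4928 nt. NDUFA10 had 4.41 and 2.54 at 365 and 254 nm, NDUFC2 3.51 and 2.45, NDUFB4 2.61 and 2.28, NDUFV3 2.40 and 1.52, NDUFB6 1.44 and 0.99, and NDUFA6 1.40 and 0.99. NDUFV1 and NDUFS1 had 2.32 and 2.08 at 365 nm, both called, and 0.01 and 0.45 at 254 nm, not called. NDUFC1, the shortest, was lower at both, at -0.83 and -1.22. Among the assembly factors NDUFAF2 (0.67) and NDUFAF6 (1.17) were higher at 365 nm, and NDUFAF4 and NDUFAF5 (both 1.84) at 254 nm.

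**Figure D4:**
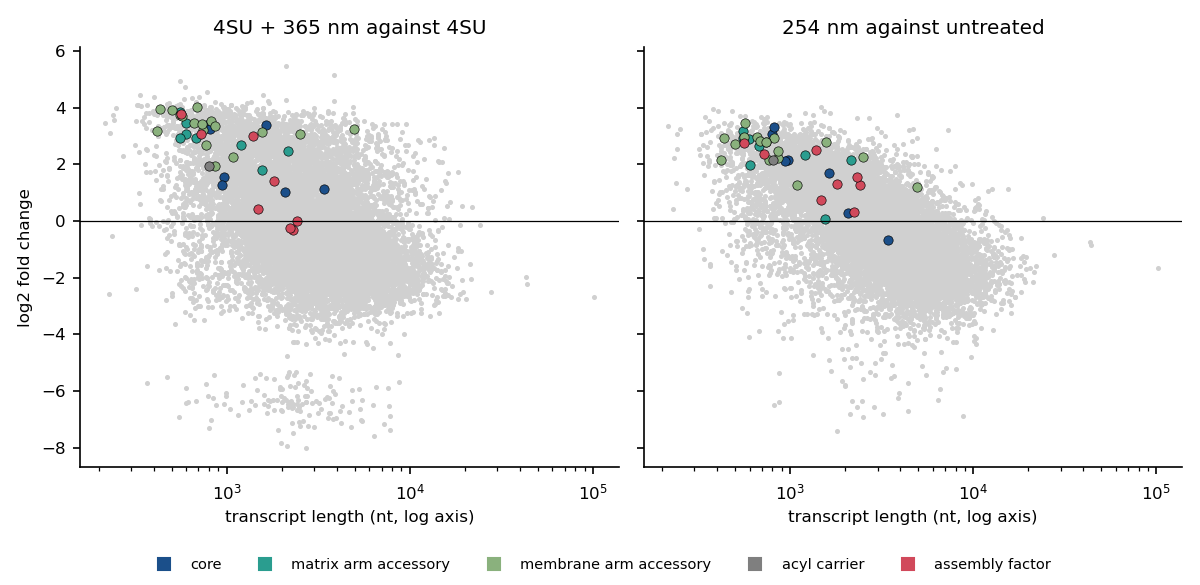
Log2 fold change against deposited transcript length (log axis) at 365 nm and 254 nm; grey points are all 13731 genes tested and coloured points the 41 members by class. Short genes lie higher in both panels, and the 3 assembly factors over 2000 nt lie near 0 at 365 nm (-0.31 to 0.02) and above 0 at 254 nm (0.33 to 1.55).

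The irradiated groups were then set against each other. After 4SU with 365 nm 14 subunits were higher and 1 lower than after 254 nm, where 15.2% and 12.5% of all genes were called (27.7% together), with a median log2 fold change of 0.88 beside -0.10, but on library totals 1 was higher and 7 lower and the median was -0.12, where 4.6% of all genes were higher and 42.9% lower (median -1.08). The count of 14 was 2 without irradiated library A of either group. These groups differ in feeding as well as wavelength.

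NDUFV1 (1.98, edgeR adjusted p 0.000171), NDUFA10 (1.65) and NDUFA1 (1.53) were highest. NDUFV1 had 1629 and 1094 CPM against 324 and 367, and NDUFA10 517 and 425 against 125 and 174. NDUFS7 (1.13) was the other core subunit called higher. In the matrix arm NDUFA2 (1.37) and NDUFA12 (0.95) were highest.

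NDUFV2 was lower, at 104 and 103 CPM against 206 and 376 (-1.49 ± 0.36, adjusted p 0.0016; 0.0831 without 254 nm library B). NDUFV2 and NDUFV1 are neighbours in the same module of the enzyme and stood on opposite sides here. NDUFAF4 was the only assembly factor called, at 38.2 and 50.3 CPM against 86.8 and 116 (-1.18 ± 0.37, adjusted p 0.0138), and lost the call without either 365 nm library (0.163 and 0.0574) or without 254 nm library B (0.116). The lowest accessory values were NDUFB4 at -0.56 and NDUFS4 at -0.29, followed by NDUFV3 and NDUFA8, none of them called.

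The difference between the irradiation effects, each against its own unirradiated group, was tested as an interaction. It was higher at 365 nm for 4 subunits, NDUFA10, NDUFS1, NDUFA5 and NDUFV1, and lower for 1 assembly factor, NDUFAF5, where 9.99% and 7.09% of all genes were called (17.1% together). The median was 0.60 over subunits, -0.11 over assembly factors and -0.15 over all genes, and on library totals 0 subunits were higher and 2 lower, with a subunit median of -0.44, where 3.6% of all genes were higher and 32.5% lower (median -1.18). For the other 29 subunits and 7 assembly factors the effects were not shown to differ.

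Other genes of the pathway give the setting. Of 16 assembly factors of complex I without an NDUF symbol, 14 were in the files, and 9 were higher and 1 lower at 365 nm (median 1.07) and 8 higher at 254 nm (1.07). Over all genes 26.1% were higher and 33.8% lower at 365 nm, and 25.2% were higher at 254 nm. DMAC1 (3.06) and AIFM1 (3.05) were highest at 365 nm, and DMAC1 (2.56) and ECSIT (2.10) at 254 nm. NUBPL, which delivers iron-sulfur clusters to complex I, had 4.83 and 6.22 CPM with 4SU and 38.2 and 23.8 after 365 nm, but 7.57 and 16.8 in untreated cells and 6.36 and 5.37 after 254 nm, with a difference of effects of 3.46 ± 0.67 (edgeR adjusted p 0.000206). TMEM186, a membrane-arm assembly factor, had 13.9 and 12.4 CPM and then 5.61 and 4.89 at 365 nm, and 12.0 and 8.25 and then 23.6 and 28.3 at 254 nm. Its difference of effects was -2.68 ± 0.65.

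Nuclear subunits of complexes II to V had 33 of 34 tested genes higher at 365 nm, with a median of 3.34, and 29 higher at 254 nm, with 2.41. Over all genes 26.1% and 25.2% were higher. Both medians are close to those of the complex I subunits, 3.17 and 2.49. On library totals 26 were higher and 2 lower at 365 nm, beside 7.42% and 72.6% of all genes. At 254 nm they were 26 and 1, beside 10.1% and 47.1%. With length and GC trends removed 20 and 6 of 29 were higher at 365 and 254 nm, beside 26.6% and 10.4%. The difference between the complexes was not tested.

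HuR depletion was measured in 1 library per siRNA and has no replicate check. ELAVL1 had 1905 tags with the GFP siRNA and 638 with the HuR siRNA, a log2 ratio of -1.53 (95% exact interval -1.66 to -1.40, counting error only), which matches the label. Of the subunits, 14 of 33 were past 1.5-fold higher and 1 past 1.5-fold lower, where 19.2% of 17798 genes with at least 10 tags were past it upward and 20.8% downward (40% together). Of the 8 assembly factors 0 were past it in either direction. The median log2 ratio was 0.55 over subunits, -0.14 over assembly factors and 0.01 over all genes, and 0.45, -0.24 and -0.10 on library totals.

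NDUFA2 was highest, with 455 tags in the GFP and 1206 in the HuR library (1.46, interval 1.30 to 1.61). NDUFA13 had 1209 and 2803 tags (1.26, 1.16 to 1.36) and NDUFS7 302 and 685 (1.23, 1.03 to 1.43). All 3 have short transcripts of 557 to 799 nt.

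The lowest were NDUFA5, with 764 and 454 tags (-0.70, interval -0.87 to -0.53), NDUFAF6, with 137 and 92 (-0.53, -0.92 to -0.13), and NDUFAF7, with 304 and 206 (-0.51, -0.77 to -0.25). NDUFS1 had 1547 and 1064 tags (-0.49). Across members the ratio had a Spearman correlation of 0.72 with GC content, and over 10600 genes it was 0.74. The complexes II to V had a median ratio of 0.48 with 15 of 35 genes past 1.5-fold higher and 2 past it lower. Of all genes with at least 10 tags 19.2% were past it upward and 20.8% downward.

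**Figure D5:**
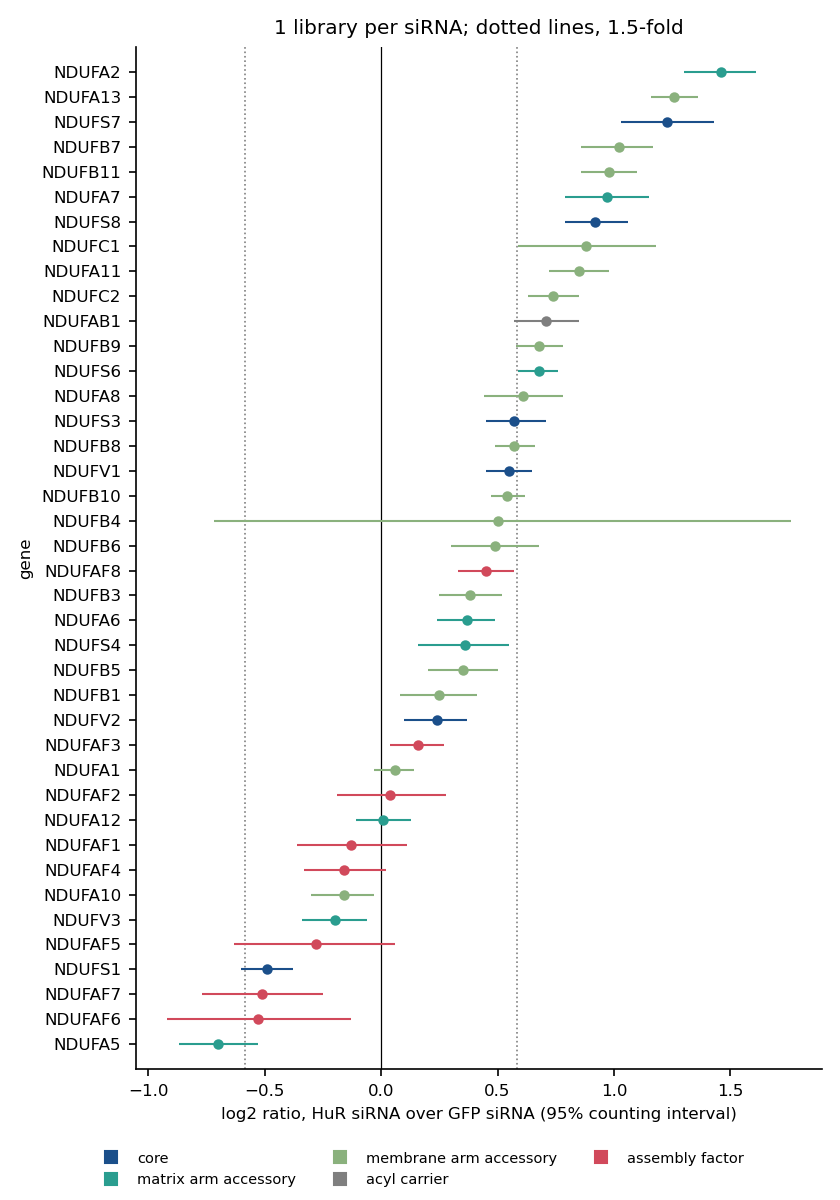
Log2 ratio of 40 of the 41 members between the HuR and GFP siRNA libraries, 1 library each, with 95% exact counting intervals; dotted lines mark 1.5-fold. The assembly factors lie between -0.53 and 0.45, inside the dotted lines, and the subunits run from -0.70 (NDUFA5) to 1.46 (NDUFA2).

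Promoters of 36 of the 41 members were in a RefSeq table of build GRCh38.p14, with 250 bases before the start searched on both strands. NRF1, the ETS factor GABP and YY1 are known regulators of respiratory chain genes. The NRF1 core (GCGCATGC) was in 5 of 29 subunit genes, NDUFA5, NDUFA6, NDUFB4, NDUFS6 and NDUFS7, beside 3.22% of 27305 genes. A longer form with GC after the core was in 1 of the 29, NDUFB4, beside 1.28%. The shorter form was searched after the longer one had been seen. The ETS motif (CCGGAAGT) was in 2, NDUFA13 and NDUFS1, beside 4.13%, and the YY1 motif (AAGATGGC) in 0, beside 1.64%. None of these motifs was in the windows of the 7 assembly factor genes, and apart from the forms of the NRF1 core no member held more than 1.

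The 60 bases around the match are shown for 4 subunits that moved apart in these data, with the motif in capitals. A match is a description, not a binding site.
NDUFS6, NRF1 core, chr5:1801335-1801394, plus strand: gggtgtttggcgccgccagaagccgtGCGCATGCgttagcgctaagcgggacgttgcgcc
NDUFS7, NRF1 core as its reverse complement, chr19:1383808-1383867, plus strand: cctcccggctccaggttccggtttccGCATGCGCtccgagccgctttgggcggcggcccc
NDUFA5, NRF1 core, chr7:123557943-123558002, minus strand: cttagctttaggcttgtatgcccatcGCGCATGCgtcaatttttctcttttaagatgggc
NDUFS1, ETS motif as its reverse complement, chr2:206159569-206159628, minus strand: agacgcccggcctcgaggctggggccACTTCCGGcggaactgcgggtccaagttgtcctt
The 3 subunits shown with the NRF1 core include NDUFS6 (3.85 at 365 nm) and NDUFA5 (1.82), the highest and lowest of the matrix arm accessory subunits. They were picked because they differed, and whether the motif goes with the fold change was not tested.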

How the data were processed

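The authors deposited, per the file headers, expected counts of tags per transcript, not normalized, with fractional counts where tags were split between transcripts, and transcript lengths. The authors' expression values were not used. The aligner and genome build are not given in the sources that were used. Counts were rounded to whole tags. Of 25005 transcripts 15886 took symbols from a RefSeq table and 134 from GENCODE v29, and 8985 kept their accession; sums per gene left 24994 features.

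The 8 libraries without siRNA were fitted with edgeR 4.0.16 in R 4.3.3 (quasi-likelihood, 4 group means, TMM, filterByExpr, 13731 genes, 4 residual and 40 prior degrees of freedom, two-sided tests, Benjamini-Hochberg adjustment, adjusted p under 0.05). SE is the log2 fold change over the root of F. A floor of 3 tags equals 0.565 to 3.37 CPM. The siRNA pair was not tested; 1.5-fold with at least 10 tags was its size rule. Alternatives were library totals, upper-quartile and RLE factors, DESeq2 1.42.0, no filter, a 5 CPM filter, compared groups alone, a replicate block, length and GC trends removed (lowess span 0.3), adjusted p under 0.01, 2-fold and 50 tags for the siRNA pair, and leaving out each library. The fits were tested on simulated data.

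The members, lists and tests were chosen with earlier results of these data known. The values of 1 member are not reported here, though the counts, medians and shares include it. Fold changes are given for core subunits, the assembly factors, the 2 largest and 2 smallest of each accessory class per contrast, and members called with 4SU or in the difference of effects; the siRNA pair adds the 3 highest and 3 lowest. NDUFS1 in the siRNA pair, the per-gene values of the length and GC refit, and the levels of NDUFAB1 and of the low and high ends of the untreated order were chosen after their values were seen.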

Additional observations from a re-analysis of the deposited data

Results flagged for a closer look

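For 5 genes the effect of 365 nm light in fed cells differed from that of 254 nm light in unfed cells by direct test. The test was the interaction term of the edgeR fit with Benjamini-Hochberg adjustment over all genes. The 5 were 4 of 33 subunits, called higher, and 1 of 8 assembly factors, called lower. Over all genes 9.99% were called higher and 7.09% lower. For NDUFA10, which rose at both wavelengths, the difference was 2.05 ± 0.48 on the log2 scale (adjusted p 0.00234). For NDUFS1, higher at 365 nm and not called at 254 nm, it was 1.78 ± 0.48 (0.00814). For NDUFA5 it was 1.76 ± 0.53 (0.0170), and for NDUFV1 1.70 ± 0.54 (0.0251). The NDUFV1 call was lost without 365 nm library A, 4SU library B, either 254 nm library or untreated library A (edgeR adjusted p 0.0595 to 0.125). The NDUFA5 call was lost without 365 nm library B, 4SU library B, 254 nm library A or untreated library B (0.0508 to 0.149), and the NDUFS1 call without 365 nm library B (0.174) or 254 nm library B (0.05). The NDUFA10 call held without any single library.

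NDUFS1 and NDUFA5 were also the subunits called lower with 4SU alone, NDUFA5 not in every alternative. The unirradiated 4SU libraries enter this difference. For NDUFAF5 it was -1.86 ± 0.67 (0.0492), with 8.98 and 8.39 CPM after 365 nm and 11.8 and 21.0 after 254 nm. The NDUFAF5 call was lost without either 365 nm library, either 4SU library, 254 nm library B or untreated library A. The NDUFAF5 call was also lost with DESeq2, with RLE or upper-quartile factors, and with the length trend removed. On library totals the differences for the 4 subunits kept their sign and lost their calls.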

How the results depend on the processing

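Most subunits kept a positive fold change after irradiation. On library totals these were 28 and 30 of 33 at 365 and 254 nm, beside 2097 and 3715 of 13731 genes. With the length trend removed they were 32 and 29 of 33, beside 6102 and 6841 of 13731. When the GC trend was taken out too they were 25 and 23 of 31, beside 4738 and 5254 of 10627. With 2 libraries a group, leaving out 1 leaves a lone library that is assumed to vary like the other groups. The letters A and B were not taken as pairs, since the labels tie them to no shared culture and not every pair of groups had same-letter deviations correlated over 0.1. The correlations were 0.346 between 4SU and untreated, 0.149 between 365 nm and 4SU, 0.127 between 254 nm and untreated, and -0.0807 to 0.0495 in the other 3 pairs. With the letter as a replicate block, the assembly factors lower in the difference of effects were 2 in place of 1, and no other count moved by over 1.5 times. Depth limits NDUFB4, NDUFAF5, NDUFAF6 and NDUFAF7 most, since 3 tags equal 0.565 to 3.37 CPM. Of 1091 alternative values of named genes, 913 kept their direction and side of the threshold, 110 lost the call, 17 gained it and 51 changed sign.

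The 2 subunits lower with 4SU were 1 with DESeq2, library totals, the compared groups alone or an adjusted p under 0.01, 4 with length and GC trends removed, and 0 to 2 leaving out a library. No subunit was higher with 4SU, and leaving out a library gave 0 to 5. No assembly factor was called with 4SU, but 1 was lower with the length trend removed, and 1 lower and 1 higher with length and GC trends removed. At 365 nm the subunits higher were 21 on library totals and 14 with length and GC trends removed, and the assembly factors 2 in the latter. At 254 nm the subunits higher were 6 and the assembly factors 2 with length and GC trends removed, and the assembly factors 3 on library totals. No subunit was lower at 254 nm, but 1 was with upper-quartile factors, on library totals, with the length trend removed or with length and GC trends removed, and leaving out a library gave 0 to 1. Between 365 and 254 nm the subunits higher were 1 on library totals, 9 with the length trend removed and 9 with length and GC, 4 at an adjusted p under 0.01, and 2 to 10 leaving out a library. The subunits lower were 7 on library totals, 2 with length and GC trends removed and 0 to 1 leaving out a library. The assembly factors lower were 6 on library totals, 0 with DESeq2, the length trend removed or an adjusted p under 0.01, and 0 to 1 leaving out a library.

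For the difference of effects the subunits higher were 0 on library totals, 7 with length and GC trends removed, 2 at an adjusted p under 0.01, and 2 to 6 leaving out a library. They were 2 without 365 nm library B, 4SU library B or either 254 nm library. The assembly factors lower were 0 with DESeq2, RLE factors, upper-quartile factors, the length trend removed or an adjusted p under 0.01, 2 on library totals or with length and GC trends removed, and 0 to 1 leaving out a library. In the siRNA pair 4 subunits were past 2-fold higher, and 2 assembly factors were past 1.5-fold lower on library totals.

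Among the genes with printed fold changes, these changed sign on library totals. At 365 nm NDUFA5 was at -0.07, NDUFAF1 at -1.42, NDUFAF4 at -1.85, NDUFAF6 at -0.49, NDUFS1 at -0.76, NDUFS3 at -0.32 and NDUFV2 at -0.61. At 254 nm NDUFA5 was at -0.83, NDUFAF1 at -0.12 and NDUFAF7 at -0.55, and between 365 and 254 nm NDUFA12 was at -0.05. Over all members the positive values between 365 and 254 nm went from 26 to 13 of 33 subunits and from 3 to 0 of 8 assembly factors. With upper-quartile factors NDUFAF4 was at -0.11 at 365 nm and NDUFA5 at -0.08 at 254 nm, and without a filter at -0.04 and -0.02. With RLE factors NDUFAF7 was at 0.00 at 365 nm.

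With the length trend removed NDUFAF1 was at -0.27 and NDUFV2 at -0.13 at 365 nm. At 254 nm NDUFA5 was at -0.90, NDUFAF1 at -0.26 and NDUFB5 at -0.13, and between 365 and 254 nm NDUFV3 was at 0.02. With length and GC trends removed NDUFA8 was at -0.18, NDUFAF1 at -0.33, NDUFAF5 at 0.07, NDUFS3 at -0.43 and NDUFV2 at -0.56 at 365 nm. At 254 nm NDUFA12 was at -0.23, NDUFA13 at -0.44, NDUFA5 at -0.24, NDUFAF1 at -0.10, NDUFAF8 at -0.64, NDUFB7 at -0.06, NDUFS1 at 0.45 and NDUFS6 at 0.00. Between 365 and 254 nm NDUFV3 was at 0.10.

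Leaving out a library gave, with 4SU, -0.30 to 1.37 for NDUFA2, -0.51 to 1.34 for NDUFA7 and -1.60 to 0.03 for NDUFB4. At 365 nm it gave -0.44 to 0.93 for NDUFAF1, -0.48 to 0.75 for NDUFAF4 and -1.49 to 0.29 for NDUFAF7. At 254 nm it gave -0.33 to 0.49 for NDUFA5 and -0.09 to 0.87 for NDUFAF7. Between 365 and 254 nm it gave -0.55 to 0.24 for NDUFA8, -1.65 to 0.06 for NDUFB4, -0.78 to 0.45 for NDUFS4 and -0.53 to 0.02 for NDUFV3. The cause of these changes was not tested beyond what each setting changes by its construction.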
